A study of Saccharomyces cerevisiae with 8 samples.

Results

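In budding yeast given a pheromone-bearing peptide, several mating genes had higher ratios of treated over untreated RNA at 3.5 and 15 min than at 7 and 30 min, and the question here was which other genes followed that alternation. The members are all 6336 yeast features of the array, each described by the mean log2 ratio of the 3.5 and 15 min arrays minus the mean of the 7 and 30 min arrays, called the pair difference below. Of these, 6152 were bright enough to be tested. The alternation was chosen by the log2 ratios of mating genes on these same arrays, so the pair differences are given as a description, without a test. A comparison of 2 arrays with 2 could in any case not give an exact two-sided permutation p below 0.333.

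The cells were Saccharomyces cerevisiae BY4741 of mating type a (MATa), a haploid laboratory strain in which HIS3, LEU2, MET17 and URA3 are deleted, in treated and untreated cultures alike. They were grown in YPD, a rich glucose medium, and either received Iztli peptide 1 (IP-1) at 10 µM, an antimicrobial peptide built to include the alpha pheromone, or received none. At each labelled exposure of 3.5, 7, 15 or 30 min, RNA of 1 treated culture (Cy5) and of 1 untreated culture of its own (Cy3) shared 1 array, always in this dye orientation. Each of the 8 samples stands for 1 of the 2 spots that a gene has on an array, so each exposure counted as 1 replicate and each pair of arrays as n = 2. Exposure, culture, labelling and array therefore cannot be told apart, and fewer responding cells cannot be told apart from less RNA per cell. The column headers number the arrays 2, 3, 4 and 1 in the order of the labelled exposures, a numbering that the labels do not explain, and the labels were followed.

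Cells of mating type a sense alpha pheromone through the receptor Ste2, whose G protein starts a MAP kinase cascade that ends at the transcription factor Ste12. Its targets include genes for a-factor, cell adhesion, cell fusion and nuclear fusion, and the pathway also induces its own brakes, such as Bar1 and Sst2. Retrotransposons of the Ty3 family are known to be transcribed under pheromone control, whereas ribosomal protein genes are known as a large co-regulated group that follows growth conditions. The correlation across features was 0.570 between 3.5 and 15 min and 0.532 between 7 and 30 min, but 0.602, the highest of the 6, between 7 and 15 min. Over all features, which are not independent replicates, the arrays thus did not sort into the pairs compared here.

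The arrays also differed by pair in signal. The median Cy3 intensity was 3.74 and 3.84 times the local background at 3.5 and 15 min, against 2.43 and 2.55 times at 7 and 30 min. For Cy5 the same values were 2.50 and 3.77 against 3.18 and 1.86 times, which overlap. The correlation between the duplicate spots of a feature was 0.778 and 0.908 on the 3.5 and 15 min arrays and 0.761 and 0.559 on the 7 and 30 min arrays. The part of these differences in the results below was not tested.

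A feature was counted when the lower array of one pair lay at least 0.5 log2 (1.41-fold) above the higher array of the other, a distance called the gap. This held for 22 features higher at 3.5 and 15 min (0.358% of those tested) and for 4 lower (0.0650%). The higher ones were 7 mating genes, 4 Ty3 features, 5 Ty1 or Ty2 features, the ribosomal protein gene RPL22A and 5 others, and none of the 4 lower ones was a mating, Ty or ribosomal protein feature. With median centring in place of loess these counts became 19 and 62, and with the deposited log ratios 15 and 40 after median centring and 41 and 19 without centring. Of the 22 higher features, 14 were also past the limit with median centring and 9 with the median-centred deposited ratios. At a smaller gap of 0.25 log2 (1.19-fold) the counts were 170 higher and 98 lower, or 168 and 242 with median centring, 83 and 166 with the centred deposited ratios and 259 and 86 without centring, where the median of all features was shifted by 0.327. The balance of higher against lower features thus moved with the normalisation. A pair difference of at least 1 log2 without overlap was reached by 5 features in the higher direction (0.0813%), PRM1, YGR109W-A, MFA1, YIL080W and BAR1, and by 2 in the lower (0.0325%), GMC1 and KKQ8. The pair differences of all features tested had a median of 0.0005 and an SD of 0.21 log2, while single features had a median standard error (SE) of 0.13, from the spread within pairs. The 32 control features labelled Ara ranged from −0.39 to 0.25 in pair difference, and 0 of them had a gap of 0.25 or more.

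Mating genes led the pattern. PRM1, which encodes a membrane protein needed when the plasma membranes of mating partners fuse, had log2 ratios of 1.22 at 3.5 min, −0.08 at 7 min, 2.18 at 15 min and 0.06 at 30 min. It was near 0 on one pair and well above it on the other, a pair difference of 1.71 ± 0.49 (SE, n = 2 a pair) or 3.27-fold, with the widest gap of all features tested, 1.16. FUS1, required for cell fusion, had 1.17, −0.10, 0.68 and 0.18 in the same order, and CHS1, a chitin synthase induced by pheromone, had 0.84, 0.06, 1.38 and 0.18. Both were thus also within 0.2 log2 of 0 on the 7 and 30 min arrays. KAR4, a transcription factor for nuclear fusion genes, differed from these in that it stayed up throughout, at 1.09, 0.57, 2.00 and 0.57. Its pair difference of 0.98 combined a treated channel that was 0.68 higher and an untreated channel that was 0.29 lower at 3.5 and 15 min. Its gap of 0.52 lay between the 3.5 and 7 min arrays. On these the log2 signal was 7.61 and 7.58 in the treated channel, and 6.52 and 7.01 in the untreated channel.

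**Figure D1:**
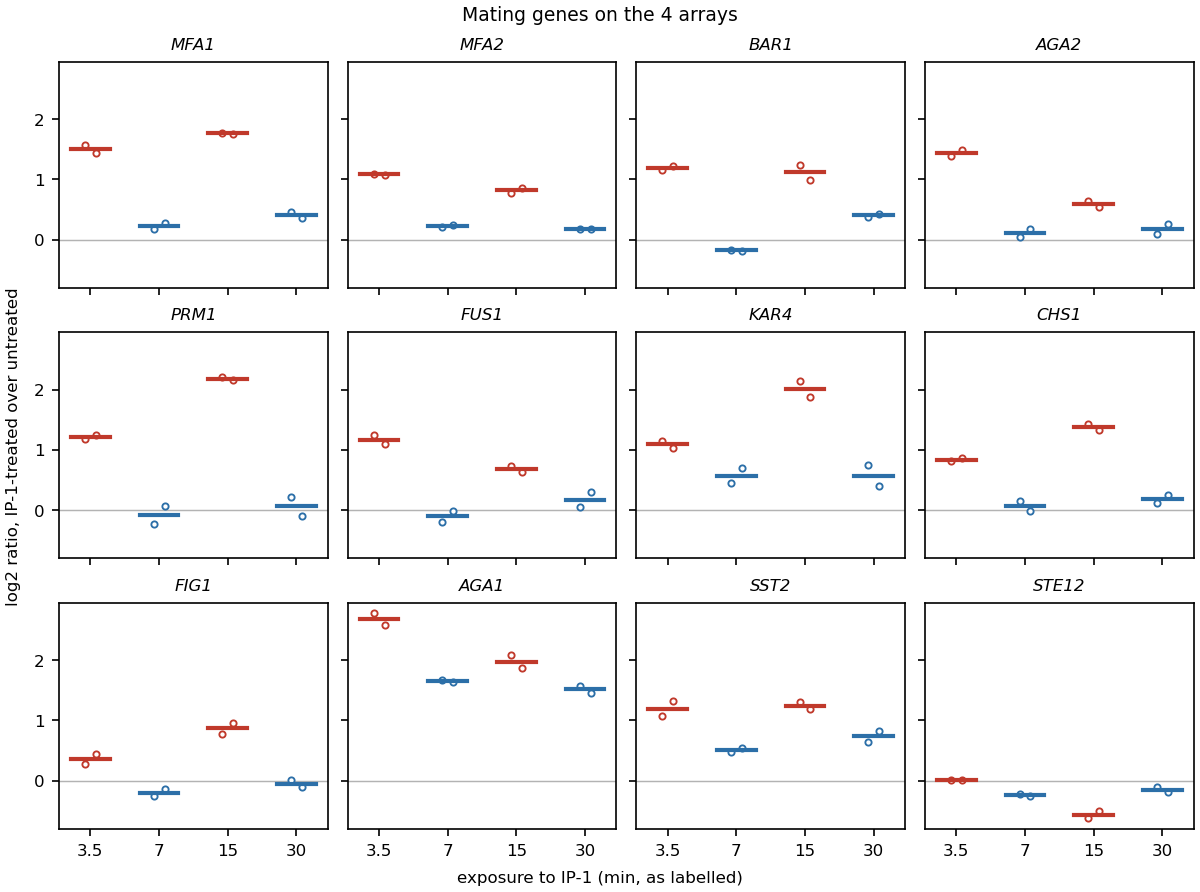
Log2 ratio of IP-1-treated over untreated cells (vertical axis) of 12 mating genes at each labelled exposure in min (horizontal axis). Bars are the mean of the 2 spots, open points are single spots, and red marks the 3.5 and 15 min arrays and blue the 7 and 30 min arrays. MFA1 and PRM1 separate the pairs by a gap above 1, AGA1 is high on all 4 arrays, and STE12 does not separate them.

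The a-specific genes, which only cells of mating type a express, included 3 of the 7 mating genes past the limit. MFA1 and MFA2 encode the precursors of a-factor, the pheromone these cells secrete. MFA1 had 1.51, 0.22, 1.77 and 0.41, a pair difference of 1.32 ± 0.16 (SE, n = 2 a pair) and a gap of 1.10. MFA2 had 1.08, 0.23, 0.82 and 0.18, a pair difference of 0.75 ± 0.13. For both genes every array was above 0 and the pairs stood clear of each other. BAR1, a secreted protease that degrades alpha pheromone, had 1.19, −0.17, 1.12 and 0.40, so that its 7 min value was the only one below 0.

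Of the 7 a-specific genes tested, 3 had a gap of 0.5, 4 a gap of 0.25 or more, and 5 did not overlap between pairs. The last compares with 20.4% of all features tested, and a gap of 0.25 in the higher direction with 2.76%. The list median was 1.08, 0.13, 0.82 and 0.28 on the 4 arrays. AGA2, the adhesion subunit of a-agglutinin, had 1.44, 0.12, 0.59 and 0.18 and a gap of 0.41. The pheromone receptor gene STE2 had 0.47, −0.13, 0.35 and 0.15 and a gap of 0.20. ASG7 and the a-factor exporter STE6 overlapped: ASG7 was high at 15 min alone, at 1.13 against 0.13 to 0.28 on the other arrays, and STE6 had 0.46, 0.13, 0.07 and 0.34. The 4 alpha-specific genes tested, among them STE3 with a pair difference of −0.30, had 0 members with a gap of 0.25, and 1 of them was higher and 1 lower without overlap.

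Among 38 pheromone response genes tested, 4 had a gap of 0.5 (PRM1, FUS1, CHS1 and KAR4), 11 a gap of 0.25 (2.76% of all features), and 17 did not overlap in the higher direction (20.4%), while 3 did not overlap in the lower direction (18.9%). The median pair difference was 0.17. Genes that act in cell contact and fusion stood beside genes of feedback among the 11. FIG1, which acts in the calcium influx of mating cells, had 0.36, −0.20, 0.87 and −0.05. Its treated channel was only 0.07 higher at 3.5 and 15 min, while its untreated channel was 0.67 lower. SST2, which shortens the G protein signal, had 1.19, 0.51, 1.24 and 0.73, and was thus above 0 on all arrays. AGA1, the cell wall anchor of a-agglutinin, had the highest level of the list on 3 of the 4 arrays, 2.68, 1.65, 1.97 and 1.51, yet a gap of only 0.32.

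The kinase gene FUS3 had a gap of 0.28, the fusion gene FUS2 0.32, the phosphatase gene MSG5 0.27 and HYM1 0.34. Core signalling genes were mixed. GPA1, the G protein alpha subunit, had 0.48, 0.25, 0.50 and 0.03 and a gap of 0.23, and the scaffold gene STE5 and the G protein gamma gene STE18 had gaps of 0.11 and 0.07. STE12 overlapped, with 0.01, −0.24, −0.57 and −0.15, as did STE4, STE11, STE20, STE7 and KSS1, with pair differences of 0.16, 0.05, −0.02, −0.13 and 0.02. In the opposite direction, PRM5 had a pair difference of −0.43 and a gap of −0.13, and PRM8 −0.28 and −0.17. The arrays of the 2 pairs overlapped for 18 of the 38 genes, so the list was not uniform.

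The mean over the 4 arrays was not the measure that chose the split, but it comes from the same arrays, and over features its Pearson correlation with the pair difference was 0.466. Since treated RNA was in Cy5 on every array, a dye effect of a gene cannot be told apart from treatment in this mean. In the pair difference only a dye effect that is the same on all 4 arrays cancels. By limma's moderated test against 0 with Benjamini-Hochberg adjustment over 6152 features, 548 features differed (8.91%), 128 higher (2.08%) and 420 lower (6.83%) in the treated channel. Without the 3.5 min array these counts were 7 and 5, and without the 7 min array 8 and 2, and with the median-centred deposited ratios 4 and 1. Of the 22 features higher at 3.5 and 15 min, 6 passed this test. They were YMR304C-A, with a mean of 1.23 and an adjusted p of 0.0103, KAR4 with 1.06 and 0.0239, MFA1 with 0.98 and 0.042, MFA2 with 0.58 and 0.0464, and the Ty3 features YIL082W with 0.82 and 0.0215 and YGR109W-B with 0.70 and 0.0406. All 6 were above 0 on 4 of 4 arrays, and all 6 lost the call without the 3.5 min array (adjusted p 0.094 to 0.191) and without the 7 min array (0.0611 to 0.111). Of the 4 lower features 0 passed, with limma's adjusted p from 0.0904 to 0.581. A wide pair difference enters this test as spread between arrays. PRM1, with the widest gap, had an adjusted p of 0.136 in limma's test.

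Outside the mating, Ty and ribosomal protein features, PCL2, SCW10, SSP120, YMR304C-A and YLL064C stood past the limit. PCL2, a cyclin of the Pho85 kinase that acts in late G1, had log2 ratios of 0.80, 0.13, 0.68 and −0.12 at 3.5, 7, 15 and 30 min, a pair difference of 0.74 ± 0.14 (SE, n = 2 a pair). It was 1 of 32 genes tested in the list of the G1 to S transition, and the only one of them with a gap of 0.25. That is 3.12% of the list, near the 2.76% of all features in the higher direction. SCW10, a cell wall protein related to glucanases, had 0.57, −0.18, 0.64 and 0.003, a pair difference of 0.69 ± 0.09. A second SCW10 feature, listed under the same locus with the suffix -r, a suffix the sources used here leave unexplained, had 0.58, −0.36, 0.64 and 0.17, which gave a pair difference of 0.70 and a gap of 0.41. Both probes thus placed the pairs apart in the same way.

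SSP120, a gene of unknown function per the deposited annotation, had 0.45, −0.21, 0.73 and −0.16, a pair difference of 0.77 ± 0.14 and opposite signs on the 2 pairs. YMR304C-A, a hypothetical protein in the deposited annotation with no entry in the R64 gene table, had 1.37, 0.83, 1.96 and 0.76, a pair difference of 0.87 ± 0.29. It was the only one of these 5 above 0.5 on every array. By its systematic name it lies beside SCW10 on the same strand, and whether the probes of both share sequence is unknown here. YLL064C, named with 8 other seripauperin and related genes that its probe cannot separate, had 0.56, 0.02, 0.76 and −0.05.

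**Figure D2:**
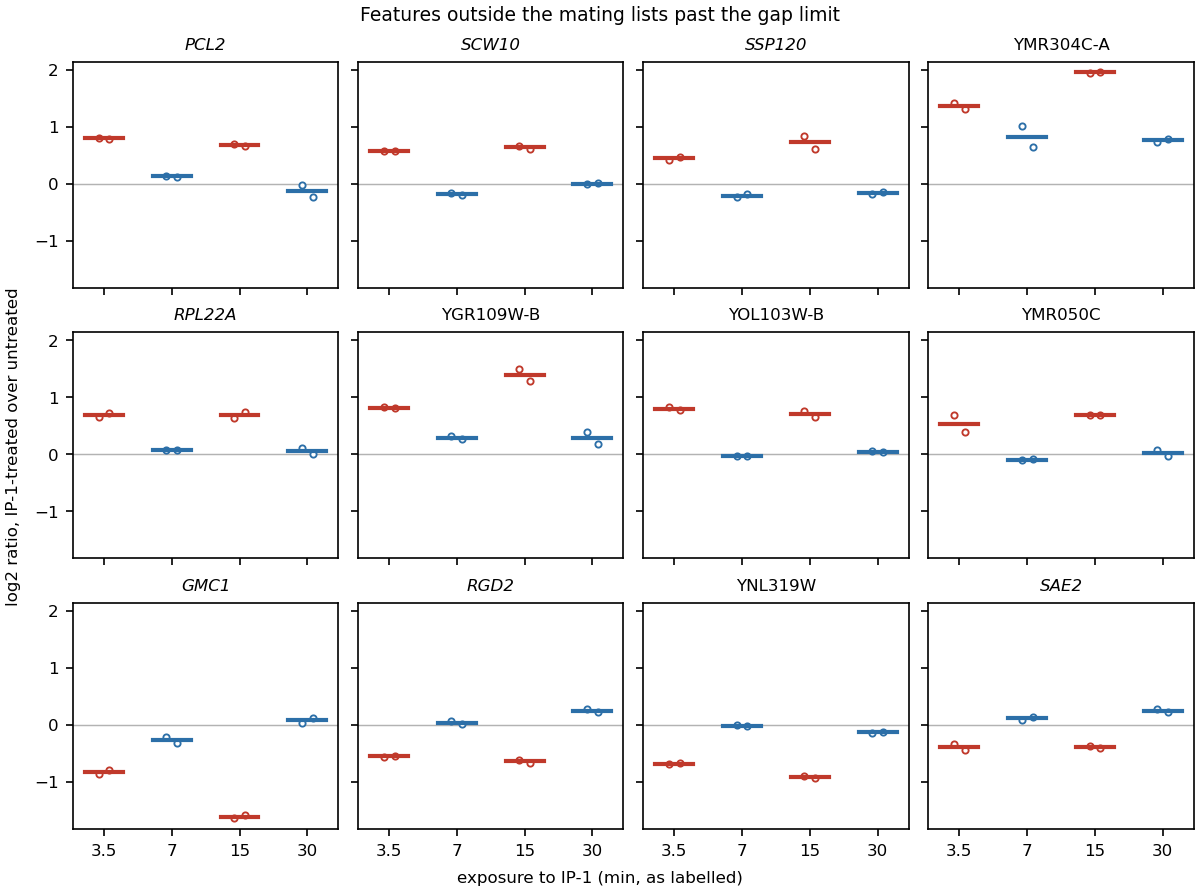
Log2 ratio of IP-1-treated over untreated cells (vertical axis) of 12 features outside the mating lists with a gap of at least 0.5, at each labelled exposure in min (horizontal axis). Bars are means of 2 spots, open points are spots, red marks the 3.5 and 15 min arrays and blue the 7 and 30 min arrays. The upper 8 are higher on the red arrays, and GMC1, RGD2, YNL319W and SAE2 are lower there.

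Retrotransposon features formed the second block. Ty elements are mobile copies that move through an RNA intermediate, and the array holds 66 features for their Gag and Gag-Pol frames, most of which share names with other copies, so that the copies cannot be separated. Of the 5 Ty3 features, 4 were past the limit. YGR109W-A had 1.13, 0.32, 2.32 and 0.28, the second largest pair difference of all features tested, 1.43 ± 0.60. YIL080W had 1.20, 0.44, 1.92 and 0.10, and YIL082W had 1.00, 0.44, 1.42 and 0.42. YGR109W-B, the only one with a single name among them, had 0.82, 0.29, 1.39 and 0.29 and a pair difference of 0.82 ± 0.29. All 4 were highest at 15 min, as PRM1, KAR4 and CHS1 were. Of the 22 higher features, 15 were higher at 15 than at 3.5 min, as were 104 of the 170 with a gap of 0.25. The SD of the ratios was also largest at 15 min, 0.35 against 0.18 to 0.25 on the other arrays. The remaining Ty3 feature, YIL082W-A, had 0.25, 0.48, 1.24 and 0.42 and overlapped, since its 3.5 min value lay below the 7 min value.

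The Ty1 and Ty2 features, of which all but YPL060C-A carry several names, differed from Ty3 in size and in channel. Of 57 tested, 5 had a gap of 0.5 (0.358% of all features did), 16 a gap of 0.25 (2.76%) and 39 did not overlap in the higher direction (20.4%), with a median pair difference of 0.28. YOL103W-B, the widest, had 0.80, −0.03, 0.70 and 0.04, a pair difference of 0.74 ± 0.06. The others past the limit, YER138C, YPR158C-C, YMR050C and YCL019W, had pair differences from 0.57 to 0.68. Their list medians were 0.36, −0.07, 0.21 and 0.01 on the 4 arrays. The 4 Ty4 features had 0 members with a gap of 0.25, and a median pair difference of −0.02.

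**Figure D3:**
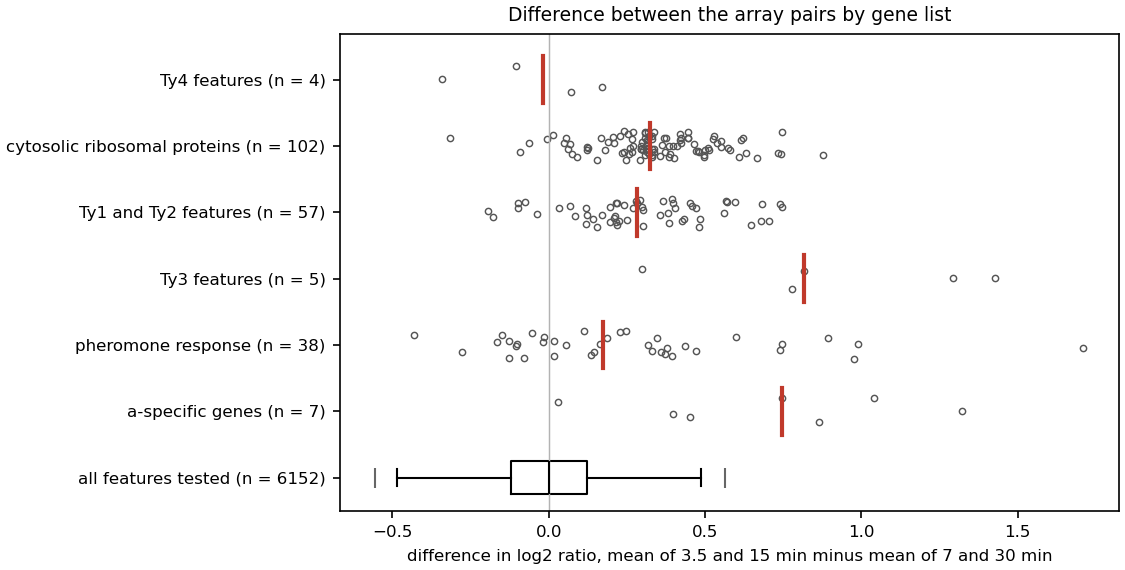
Difference in log2 ratio between the 3.5 and 15 min arrays and the 7 and 30 min arrays (horizontal axis) for each gene list (vertical axis), with 1 open point a feature and a red bar at the list median. The box shows the quartiles of all 6152 features tested, its whiskers reach the last value within 1.5 box lengths, and grey ticks mark the 1st and 99th percentiles, −0.55 and 0.56. The medians are 0.75 for a-specific genes, 0.82 for Ty3, 0.33 for ribosomal proteins and 0.28 for Ty1 and Ty2.

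Genes of cytosolic ribosomal proteins, the structural parts of the translating ribosome, were shifted as a group by a smaller amount. Of 102 tested, 98 had a pair difference above 0, as 3084 of all 6152 features did. Of the 102, 76 did not overlap in the higher direction (20.4% of all features) and 2 in the lower (18.9%), 30 had a gap of 0.25 (2.76%) and 1, RPL22A, a gap of 0.5. The median pair difference was 0.33, from list medians of 0.27 at 3.5 min, 0.05 at 7 min, 0.39 at 15 min and −0.12 at 30 min. Large and small subunit genes were alike in this, with medians of 0.32 over 54 and 0.34 over 43 genes. RPL22A had 0.68, 0.07, 0.69 and 0.06, so that its pairs stood 0.62 ± 0.01 apart. RPL42B had the largest pair difference of the list, 0.88, from 0.53, 0.11, 1.01 and −0.31. RPS26A, just outside the limit at a gap of 0.498, had 0.17, −0.33, 0.21 and −0.36.

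The shift of the ribosomal protein genes depended on the normalisation. With median centring, 46 of the 102 ribosomal protein genes and not 76 were higher without overlap. A gap of 0.25 was then held by 7 of them, and by 168 of all 6152 features. With the median-centred deposited ratios, 7 were higher without overlap and 2 had a gap of 0.25, as 83 of all 6152 features did. The list median at 7 min was then 0.40, above the 0.11 of 3.5 min. For Ty1 and Ty2, 38 of 57 features were higher without overlap with median centring and 16 with those ratios, and the 7 min median was 0.39 against 0.22 at 3.5 min. Of the a-specific genes 5 of 7 were higher without overlap with loess and under both of these settings, with 7 min medians of 0.13, 0.19 and 0.33, and of the Ty3 features 4, 4 and 5 of 5. The share of all features without overlap was counted with loess only, so the counts without overlap under these settings have no such background. PRM1, MFA1 and the Ty3 features YGR109W-A and YIL080W had a gap of 0.5 or more in all 13 settings that used all 4 arrays. Those of the 13 that changed only the filter repeat the reported gap of each feature by construction. RPL22A, YER138C, YMR050C and YLL064C overlapped in 1 of the 13, and SSP120, PCL2 and SCW10 stayed apart in 13 of 13, with smallest gaps of 0.26, 0.37 and 0.35.

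**Figure D4:**
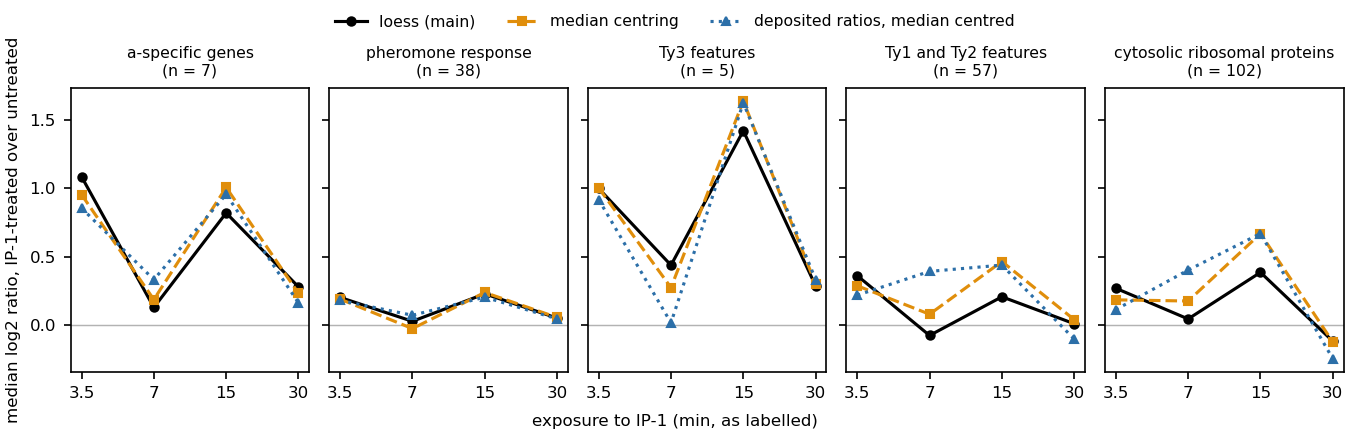
Median log2 ratio of IP-1-treated over untreated cells (vertical axis) of 5 gene lists at each labelled exposure in min (horizontal axis), with loess (black), median centring (orange) and the deposited ratios after median centring (blue). Lines only join the 4 arrays, which are different cultures. At 7 min the ribosomal protein median moves from 0.05 with loess to 0.40 with the deposited ratios, whereas the a-specific genes and Ty3 have both peaks under all 3.

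The 2 channels, scaled between arrays by their average brightness, showed how these groups differed. The Cy5 channel of treated cells differed more between pairs than the Cy3 channel of untreated cells for 4049 of all 6152 features. It did so for all 22 higher and all 4 lower ones, which follows largely from choosing them on the difference of both channels, since the Cy3 shift had the sign of the pair difference in 20 and 4 of them. For PRM1 the Cy5 signal was 1.79 log2 higher at 3.5 and 15 min and the Cy3 signal 0.08 higher; for FUS1 these were 0.87 and −0.02, and for CHS1 1.19 and 0.20. MFA1 had 1.87 and 0.55 and BAR1 1.61 and 0.57. FIG1, with a gap of 0.41, had 0.07 and −0.67. Among the 15 mating features with a gap of 0.25, Cy3 was higher at 3.5 and 15 min in 10 and lower in 5. The Cy3 signal of MFA1 was 10.23, 9.30, 9.05 and 8.88 on the 4 arrays, so that its pairs overlapped in untreated cells and 3.5 min alone stood out. That of BAR1 was 8.96, 8.28, 8.35 and 7.90, with 15 min barely above 7 min. The 4 Ty3 features past the limit had a median of 1.30 in Cy5 and 0.24 in Cy3.

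Ribosomal protein features were brighter in both channels. Their median difference between pairs was 1.42 log2 in Cy5 and 1.00 in Cy3, and that of all Ty1 and Ty2 features was 1.10 and 0.84. Among features past a gap of 0.25, the medians were 1.63 and 1.05 for ribosomal proteins and 1.57 and 0.95 for Ty1 and Ty2. The Cy3 medians of the ribosomal protein features on the 4 arrays were 11.09, 9.45, 10.76 and 10.15, so that both pairs stood apart in untreated cells as well. YMR050C was the extreme, at 3.57 in Cy5 and 2.92 in Cy3. Over all features tested the pair difference in ratio had a Spearman correlation of 0.474 with the mean shift of both channels, given as a description since both are read from the same spots. The 1231 features with the largest such shift held 133 of the 170 with a gap of 0.25 in the higher direction, and the 1230 with the lowest held 63 of the 98 in the lower direction (1.59% of those tested). The part of this brightness shift in the ratios was not tested.

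**Figure D5:**
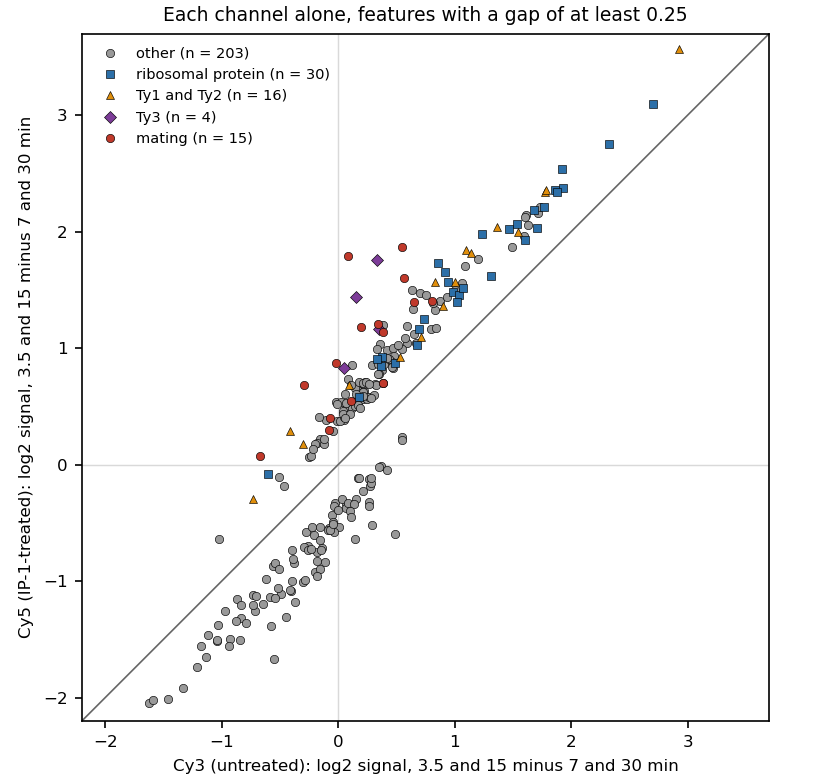
Difference between the 3.5 and 15 min arrays and the 7 and 30 min arrays in log2 signal of untreated cells (Cy3, horizontal axis) and of IP-1-treated cells (Cy5, vertical axis) for the 268 features with a gap of at least 0.25. Each point is 1 feature, the line marks equal shifts in both channels, and distance from it is the difference in ratio. PRM1 lies at 0.08 and 1.79. The median shifts in Cy3 and Cy5 are 1.05 and 1.63 for the 30 ribosomal protein features, and 0.95 and 1.57 for the 16 Ty1 and Ty2 features. The Cy3 shift is below 0 for 1 and 3 of these. By the choice of features, all points lie off the line.

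The 4 lower features were bright, at a median brightness percentile of 93.8. GMC1, a gene known from meiosis, had log2 ratios of −0.82, −0.27, −1.61 and 0.08, the most negative pair difference of all features tested, −1.12 ± 0.43. RGD2 had −0.56, 0.03, −0.64 and 0.25, a pair difference of −0.74 ± 0.12. SAE2, which acts with an endonuclease complex in processing DNA double-strand breaks, had −0.39, 0.11, −0.39 and 0.25, and YNL319W, a hypothetical protein, had −0.68, −0.02, −0.92 and −0.14. RGD2 and SAE2 were thus below 0 on one pair and above it on the other. FMP32, the R64 neighbour of RGD2, had −0.45, 0.02, −0.28 and 0.14 and a gap of −0.30. Over the 26 neighbours of the 15 single-name features past the limit that could be placed in R64, 3 had a gap of 0.25 in the same direction as the gene beside them. Of all features tested, 2.76% had such a gap in the higher direction and 1.59% in the lower. The 3 neighbours were FMP32, the Ty3 frame YGR109W-A, which overlaps YGR109W-B itself, and YEF3, a translation elongation factor gene beside SSP120 with a gap of 0.30.

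The limit itself divided features with like values. Just inside it on the higher side lay FUS1, with a gap of 0.509, and YMR050C, with 0.513. Just outside lay YOL103W-A, another Ty1 or Ty2 feature, with a gap of 0.499 and ratios of 0.96, −0.02, 0.56 and 0.06, and RPS26A. On the lower side SAE2 at −0.502 and YNL319W at −0.548 were inside. HRD3, a subunit of a ubiquitin ligase of the endoplasmic reticulum, at −0.498, and YGR022C, a dubious frame that overlaps MTL1 per the deposited annotation, at −0.484, were outside. When the gap of 0.5 had to hold between single spots, 14 features were higher and 2 lower.

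Between gaps of 0.25 and 0.5 lay genes named here after their values were seen. Cell surface genes included CCW12, a mannoprotein of the wall, with 0.60, −0.17, 0.48 and 0.01, SED1 with 1.01, 0.28, 0.59 and 0.04, and NCW2 with 0.71, 0.18, 1.45 and 0.35. The last is a wall protein per the deposited annotation, and its 15 min value was the highest of the 3 genes. In the fixed list of cell wall integrity genes, however, only NCW2 and SED1 of 31 tested had a gap of 0.25 (6.45%, against 2.76% of all features). The median pair difference was 0.04. GPA2, the G protein alpha subunit of glucose sensing, had 0.36, −0.10, 0.43 and −0.09, with Cy3 signals that were 0.10 lower and Cy5 signals 0.39 higher at 3.5 and 15 min. HYP2, which encodes translation factor eIF5A, had 0.66, 0.07, 0.51 and 0.03, and YEF3 had 0.43, 0.08, 0.63 and 0.12. Both were brighter in the 2 channels at 3.5 and 15 min, by 0.87 and 1.63 log2 in Cy3.

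In the lower direction HSP10, the mitochondrial chaperonin partner, had −0.48, 0.001, −0.90 and 0.17 and a gap of −0.48. OSM1, a fumarate reductase, had −0.31, 0.16, −0.67 and 0.30. OSM1 thus had opposite signs on the 2 pairs. RPO41, the mitochondrial RNA polymerase, had −0.46, −0.03, −0.79 and −0.08, and GUF1, a mitochondrial translation factor, had −0.61, −0.02, −1.18 and −0.15. SPT16, a histone chaperone subunit, had −0.47, −0.03, −0.70 and −0.02, and NUP116, a nuclear pore protein, had −0.46, −0.05, −0.82 and −0.02. All 6 were lowest at 15 min. Of the 98 features lower by a gap of 0.25, 68 were lower at 15 than at 3.5 min, and of the 170 higher ones 104 were higher at 15 min. Of 23 heat shock chaperone genes tested, HSP10 alone had a gap of 0.25, which 1.59% of all features had in the lower direction. The median pair difference was 0.06. Of 41 TCA cycle and respiration genes tested, 15 were higher without overlap (20.4% of all features) and 2 lower (18.9%). Their median pair difference was 0.08. LSC2 and QCR9 had gaps of 0.26 and 0.32 in the higher direction, 4.88% of the list against 2.76% of all features with a gap of 0.25. Lower features tended to be bright and long: 61 of the 98 were among the brightest 20%, and their median gene length was 1638 bases over the 89 with a length, against 912 for 151 of the 170 higher features and 1236 for all tested. Of the 170 higher features, 61 were among the brightest 20%.

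Of 66 mitochondrial ribosomal protein genes, 19 did not overlap in the lower direction, against 18.9% of all features, and 7 in the higher direction, against 20.4%. Their median pair difference was −0.06. MRPL25 was the 1 member with a gap of 0.25, which 2.76% of all features had in the higher direction. It had 1.86, 1.43, 1.72 and 1.01, and an adjusted p of 0.00243 in limma's test of the mean. Of 15 drug efflux genes, 0 did not overlap in the higher direction (20.4% of all features) and 6 in the lower (18.9%). None had a gap of 0.25 (2.76% of all features higher and 1.59% lower). Histone, proteasome, iron, phosphate, ergosterol, glycolysis, calcium, and M to G1 genes had 0 members with a gap of 0.25 in either direction. The genes deleted in the strain had 0 as well, with pair differences from −0.15 for LEU2 to 0.13 for MET17. Their probes gave signal all the same. The mean log2 brightness was 15.47 for LEU2, 9.26 for MET17, 8.09 for HIS3 and 6.85 for URA3, against a median of 7.89 over all features tested. What these probes detect was not tested.

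Second features of the same locus gave further values from the same arrays. For 83 loci both a plain feature and one with the suffix -r were tested, and their pair differences had a Pearson correlation of 0.443 over loci, as a description. Of 13 features with the suffix and a gap of 0.25 in the higher direction, 7 had a partner with such a gap. Of all 83 partners 10 had one, and of all features tested 2.76%. For 11 of the 13 the partner was higher without overlap, as 20.4% of all features were. YDR154C, for example, had 0.78, 0.20, 0.71 and 0.23, and its second feature 0.68, 0.21, 0.74 and 0.09. FKS1, a glucan synthase subunit, was a counter-example, with pair differences of 0.54 for the plain feature and −0.14 for the other. NCW1 and GND1 had gaps of 0.44 and 0.33 with the suffix, while their plain features overlapped. OLE1 and GDH1 had gaps of −0.29 and −0.26 with the suffix, while their plain features had pair differences of 0.08 and 0.10.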

How the data were processed

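Per the file headers, the deposited scanner tables give each spot's mean raw intensity in both channels, with its local background (mean and SD). The authors' deposited value table is a log10 ratio, Cy5 over Cy3, with no background correction or centring, since its values equal the scanner ratios within 1.65e-06 on the log2 scale. Scanner software, probe sequences and genome build are not given in the sources used here. Intensities were corrected with normexp (offset 50), normalised within arrays by loess (span 0.3, 4 iterations, weight 0 for empty and Ara spots), and the 2 spots of a feature were averaged. A feature was tested if both spots exceeded background by 2 background SDs in 1 channel on all 4 arrays (6152 of 6336). The number of arrays limits the precision. P-values measure the spread between 4 arrays of different exposures. Channels were compared after loess and Aquantile scaling.

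The mean over arrays was tested with lmFit and eBayes (two-sided, adjusted p under 0.05, prior df 5.32). R 4.3.3, limma 3.58.1, Python 3.11.15 and matplotlib 3.10.9 were used, and the calculations were tested on simulated data. Members, lists and the pairing of arrays were chosen with earlier results of these data known. Ty families were assigned from the deposited annotation after the files were read. Named genes were the mating genes past the limit, up to 15 single-name features in each direction, list members past it and the 2 nearest features on each side of it. Others were chosen after their values were seen, as were mating and ribosomal genes under the limit. Names follow R64 locus tags (5763 matched, 573 not), 275 features carry several names and 86 the suffix -r. Promoter motifs were planned and not analysed here.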

Additional observations from a re-analysis of the deposited data

Results flagged for a closer look

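For 4 features past the limit, all spots of the 3.5 and 15 min arrays and all spots of the 7 and 30 min arrays lay on opposite sides of 0. SSP120 was above 0 at 3.5 and 15 min and below it at 7 and 30 min, with a pair difference of 0.77. YCL019W, a Ty1 or Ty2 feature, did the same with 0.57. RGD2 and SAE2 did the opposite, with −0.74 and −0.57. These differences between pairs were not tested, and each pair holds 2 arrays. The values at 7 and 30 min were close to 0, from −0.21 to −0.10 for SSP120 and YCL019W and from 0.03 to 0.25 for RGD2 and SAE2.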

How the results depend on the processing

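No paired analysis was possible because the shared replicate numbers are the 2 spots of 1 array, which were averaged, and the split of the arrays has no test. No sign reversed among pair differences past the limit, list medians and means that were called as reported. Sign changes of other values were not recorded, and leaving out 1 array cannot reverse a pair difference past the limit. Of the pair differences of named features, 686 moved by less than the spread within pairs and 128 by more. The 686 include settings that changed only the filter, which repeat the same values. Among means of features past the limit, 394 stayed on their side of the threshold, most of them not called in either fit, while 31 lost a call and 17 gained one. Counts with a gap of 0.5, 22 higher and 4 lower as reported, became 48 and 10 with plain background subtraction, 19 and 62 with median centring, 41 and 19 with the deposited ratios and 15 and 40 after centring these. Print-tip loess gave 2 lower and scaling between arrays 10 higher. Other limits gave 170 and 98 (gap of 0.25), 5 and 2 (difference of 1), 1254 and 1164 (no overlap) and 14 and 2 (single spots). Leaving out 1 spot or array gave 22 to 110 higher and 5 to 249 lower, the most without the 3.5 min array, where that pair holds 1 array. Mean calls became 50 and 213 without background correction, 78 and 226 with median centring, 7 and 52 with the deposited ratios, 4 and 1 after centring, and 216 higher with scaling; leaving out 1 spot or array gave 7 to 154 higher and 2 to 421 lower. The cause was not tested. The deposited ratios, whose median pair difference was 0.327, gave medians of 1.01 (a-specific), 0.56 (pheromone response), 0.61 (ribosomal proteins), 1.20 (Ty3) and 0.51 (Ty1 and Ty2). The pheromone response median, 0.17 as reported, was 0.15 without background correction, 0.21 with an offset of 16, 0.22 with subtraction or median centring, 0.12 with scaling, 0.24 with centred ratios, 0.21 with no filter, 0.32 above empty spots and 0.15 to 0.22 leaving out 1 spot or array. Ty3, 0.82 as reported, was 1.06 with subtraction and 0.57 to 1.11 leaving one out, and Ty1 and Ty2, 0.28 as reported, 0.19 with centred ratios and 0.16 to 0.42. The motif comparison was not run. The signal over background was lowest at 30 min in Cy5 (1.86), which limits dim features there.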
